A study of Mus musculus with 2 samples.

Results

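Osteoclast-type fusion genes and matrix-degrading metalloproteinase genes were read across single macrophages of mouse pancreatic islets. The 10 genes were Ocstamp, Dcstamp, Acp5, Ctsk, Atp6v0d2, Gpnmb, Mmp9, Mmp12, Mmp13 and Mmp14, taken by symbol from the 31053 genes of the count matrices, and all 10 were listed there. They were chosen by known role with their measured levels in these macrophages already seen, and the cells were selected on C1q counts, so the levels below are descriptions. The series concerns oxidant defence in macrophages resident in islets. Pools of islets came from 6 to 8 male mice (C57BL/6J, chow diet), and live CD45+ cells lacking the epithelial protein Epcam were sorted. Droplet libraries counted transcript 3' ends by unique molecular identifier (UMI). One pool is labelled 12 weeks and the other 1 week. What the weeks are counted from is not stated in the labels, and no mouse age is given. The titles number the pools rep2 (12 weeks) and rep1 (1 week) with the same tissue and diet, so a ratio between them compares libraries that only the time label and experiment number set apart. Each time label has 1 library and its own experiment number, so label, experiment and pool cannot be told apart. No test was possible between them, and every interval below is a 95% interval that covers counting error only.

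A macrophage is a large tissue cell that engulfs debris, and under the cytokines M-CSF and RANKL its precursors can fuse into osteoclasts, the multinucleate cells that resorb bone. Fusion needs the membrane proteins DC-STAMP and OC-STAMP. Resorption needs a proton pump of the V-ATPase class, the tartrate-resistant acid phosphatase TRAP, the collagen-cutting protease cathepsin K and matrix metalloproteinases. Several of these genes are also used by macrophages that do not fuse.

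Macrophages were taken as barcodes with at least 5 UMIs of the complement genes C1qa, C1qb and C1qc together, after a filter that removed barcodes under 500 genes or 1000 UMIs or over 10% mitochondrial UMIs. They numbered 1620 of 1752 cells (92.5%) in the 12-week library and 1243 of 1340 (92.8%) in the 1-week library, out of 1867 and 1551 barcodes against a target of 3000 to 4000. Their median depth was 6890.5 UMIs per cell at 12 weeks and 7401 at 1 week. All 10 macrophage markers checked were detected, and the receptor gene Csf1r was found in 90.6% of these cells at 12 weeks and 89.5% at 1 week. The cut left few cells near it, with 15 cells at 12 weeks and 14 at 1 week at 3 to 4 C1q UMIs. The libraries shared 3 barcodes, 1 of them a macrophage in both. For shares and co-detection each cell was thinned at random to 3000 UMIs, which kept 1530 macrophages at 12 weeks and 1089 at 1 week and left out 90 and 154 shallower ones. Transcripts of islet hormone genes, which macrophages do not make, were 0.576% of macrophage UMIs at 12 weeks and 1.98% at 1 week. Their median share per macrophage was 0.0913% at 12 weeks and 0.0910% at 1 week.

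The 10 genes split into 6 that were found in over 2% of macrophages of both libraries and 4 that were at or near 0. Mmp12 was found in most macrophages, Acp5, Dcstamp, Mmp13 and Mmp14 in 20.1% to 38.1% of cells, and Ocstamp in a few percent. Ctsk, Atp6v0d2, Gpnmb and Mmp9 were each found in under 1% of cells at equal depth. The 2 libraries gave the same split. CPM counts 3' ends, 1 per molecule, and levels of different genes are compared on that scale, not per length.

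**Figure D1:**
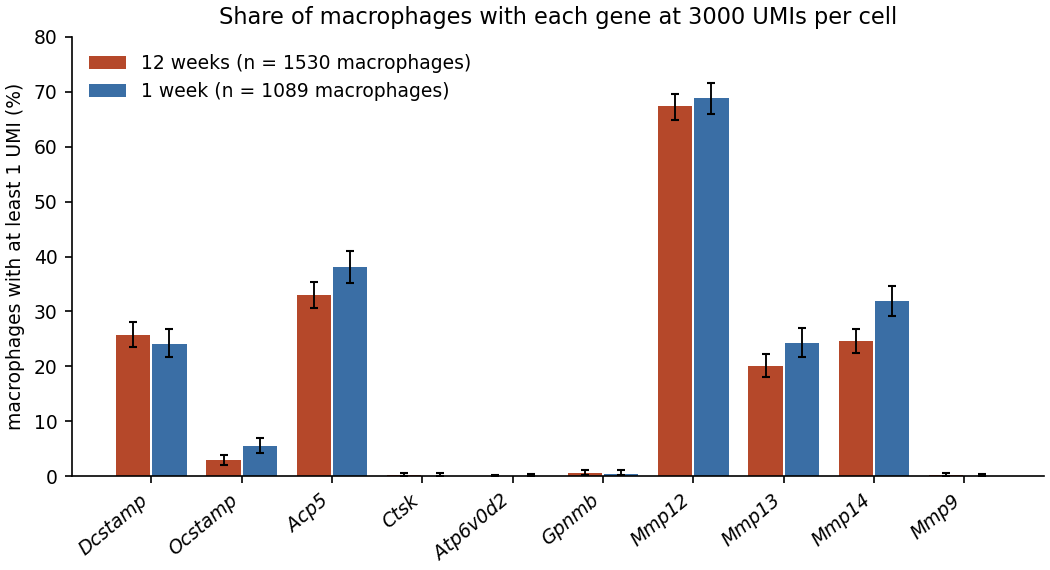
Share of macrophages with at least 1 UMI of each member (y axis, percent) after thinning to 3000 UMIs per cell, for 1530 cells of the 12-week library (left bar of each pair) and 1089 of the 1-week library. Error bars are exact 95% binomial intervals. Mmp12 stands at 67.3% and 68.8%, and Ctsk, Atp6v0d2, Gpnmb and Mmp9 stay under 1%.

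Dcstamp encodes DC-STAMP, the multi-pass membrane protein that fusing osteoclast precursors and foreign-body giant cells need. It lies on chromosome 15 (GRCm38, 39745930 to 39760938, plus strand). Dcstamp had 137.6 counts per 1000000 macrophage UMIs (CPM) at 12 weeks, with an interval of 130.9 to 144.5, and 119.6 CPM (113.3 to 126.1) at 1 week. At equal depth it was found in 25.8% (23.6 to 28.0) of 12-week cells and 24.2% (21.6 to 26.8) of 1-week cells. The equal-depth share of each library thus lay inside the interval of the other. The gene was spread thinly, since 231 of 394 positive cells at 12 weeks and 155 of 263 at 1 week held 1 UMI. No cell had more than 6 at that depth in either library.

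Ocstamp encodes OC-STAMP, the partner protein of DC-STAMP in osteoclast fusion, and lies on chromosome 2 (165393760 to 165400405, minus strand). It had 142 UMIs in 109 of 1620 macrophages at 12 weeks, which is 12.4 CPM (10.5 to 14.6). At 1 week it had 291 UMIs in 166 of 1243 macrophages, which is 25.5 CPM (22.7 to 28.6). The ratio of 12 weeks over 1 week was 0.486 (0.395 to 0.597), or a log2 ratio of -1.04. At equal depth the share was 2.88% (2.10 to 3.84) at 12 weeks and 5.51% (4.23 to 7.04) at 1 week. Whether such intervals overlap changed with the draw and the depth. They did not in this draw, but in a separate random draw they did, at 1.99 to 3.69% and 3.67 to 6.32%. With 2000 UMIs per cell they overlapped and with 5000 they did not. Quartiles of macrophages by UMIs, set within each library, did not all give the lower value at 12 weeks. In the lowest quartile Ocstamp stood at 12.2 CPM at 12 weeks and 4.20 CPM at 1 week, the second from 1.29% of 311 cells, where the median cell had 4384 UMIs at 12 weeks and 3011 at 1 week. In the highest quartile it stood at 15.3 CPM at 12 weeks and 29.7 CPM at 1 week, where the median cell had 9423 and 15492 UMIs. Depth thus differed between the libraries within a quartile, and its part in the ratio was not tested.

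Ocstamp was also found in cells under the C1q limit. Of all such cells 1 of 132 (0.758%) held it at 12 weeks and 9 of 97 (9.28%) at 1 week, and all 9 carried at least 3 UMIs of macrophage markers. At equal depth it was in 0 of 81 at 12 weeks, which allows a share of up to 3.70%, and in 5 of 75 (6.67%, 2.20 to 14.9) at 1 week. The equal-depth macrophage share was not above that limit at 12 weeks or that share at 1 week. Because all 9 cells carried macrophage markers, cells under the limit are no background for comparing the libraries. The macrophage share was the lower one at 12 weeks with 2000 UMIs per cell (2.01% against 3.45%) and with 5000 (5.35% against 10.4%). This order describes these libraries only, and its cause was not tested.

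Both fusion receptors were seldom found in the same cell. Ocstamp and Dcstamp were detected together in 14 of 1530 macrophages at 12 weeks (0.915%, 0.501 to 1.53) and in 23 of 1089 at 1 week (2.11%, 1.34 to 3.15). Dcstamp was found in 31.8% of Ocstamp-positive and 25.6% of Ocstamp-negative cells at 12 weeks, and in 38.3% and 23.3% at 1 week. Cells with both and Acp5 numbered 8 at 12 weeks and 14 at 1 week. A UMI count of 0 at 3000 UMIs does not show that a cell lacks a transcript.

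Acp5 encodes TRAP, the phosphatase stained to identify osteoclasts and also made by many tissue macrophages. It lies on chromosome 9 (22126727 to 22135711, minus strand) across from the non-coding 6530413G14Rik on the other strand, and the use of strand in counting is not given in the sources at hand. Acp5 had 207.0 CPM (198.7 to 215.5) at 12 weeks and 283.8 CPM (274.1 to 293.7) at 1 week, a ratio of 0.729 (0.691 to 0.769). At equal depth it was found in 33.0% (30.7 to 35.4) of 12-week and 38.1% (35.2 to 41.1) of 1-week macrophages. Its level was higher in cells with more RNA. Over the quartiles of macrophages by depth, from the fewest to the most UMIs, Acp5 stood at 127.2, 161.0, 193.0 and 276.0 CPM at 12 weeks and at 170.1, 173.0, 283.4 and 339.7 CPM at 1 week. In each quartile the 12-week value was the lower one, but the quartiles were set within each library and differed in depth. Their median cells had 4384, 6305, 7611 and 9423 UMIs at 12 weeks and 3011, 6281, 8716.5 and 15492 at 1 week. In the second quartiles, with medians of 6305 and 6281 UMIs, the values were 161.0 and 173.0 CPM. The part of depth in the Acp5 ratio was not tested.

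Acp5 was also seen in cells with markers of B or T cells. Among cells under the C1q limit with at least 3 UMIs of B or T cell markers, it was found in 14 of 60 (23.3%, 13.4 to 36.0) at 12 weeks and 6 of 36 (16.7%, 6.37 to 32.8) at 1 week, at median depths of 3100.5 and 4655 UMIs. Thinned to 3000 UMIs, 6 of 34 such cells (17.6%) at 12 weeks and 3 of 29 (10.3%) at 1 week held it, with intervals of 6.76 to 34.5% and 2.19 to 27.4%. In a separate random draw 8 of the 34 and 2 of the 29 held it. These cells held 72.8 CPM of Acp5 at 12 weeks and 29.7 CPM at 1 week. Dcstamp and Ocstamp had 0 UMIs in them in both libraries, which allows a share of up to 5% of 60 cells and 8.33% of 36. At equal depth the limits are 8.82% of 34 cells and 10.3% of 29. The equal-depth macrophage shares of Dcstamp, 25.8% and 24.2%, lie above them, and those of Ocstamp, 2.88% and 5.51%, lie below.

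Ctsk, Atp6v0d2 and Gpnmb were nearly absent. Ctsk, the cathepsin that cleaves bone collagen, had 5 UMIs in 5 macrophages at 12 weeks and 4 UMIs in 4 macrophages at 1 week, or 0.437 CPM (0.142 to 1.02) and 0.351 CPM (0.0955 to 0.898). Atp6v0d2, the d2 subunit of the V-ATPase that osteoclasts induce and that mouse precursors need for efficient fusion, had 2 UMIs in 1 cell at 12 weeks and 0 UMIs in 1243 cells at 1 week, which allows a share of up to 0.241%. The other form of that subunit, Atp6v0d1 (looked up after the values of Atp6v0d2 were seen), stood at 166.0 CPM at 12 weeks and 109.5 CPM at 1 week, so the pump subunit was represented by its broadly expressed form. Gpnmb, a transmembrane glycoprotein of osteoclasts and of lipid-laden macrophages, had 25 UMIs in 18 cells at 12 weeks and 56 UMIs in 13 cells at 1 week. Its ratio was 0.445 (0.266 to 0.725), but in the 1-week library the 3 richest cells held 71.4% of its UMIs, and at equal depth the shares were 0.588% (0.269 to 1.11) at 12 weeks and 0.459% (0.149 to 1.07) at 1 week.

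Other genes that define osteoclasts were split in the same uneven way. The calcitonin receptor gene Calcr had 0 UMIs in macrophages of both libraries, the collagen receptor gene Oscar 0 at 12 weeks and 1 at 1 week, and the integrin gene Itgb3 3 and 6. The RANK receptor gene Tnfrsf11a stood at 35.0 CPM at 12 weeks and 44.4 CPM at 1 week. Nfatc1, the master transcription factor of osteoclasts, stood at 28.2 CPM at 12 weeks and 25.9 CPM at 1 week. The summed level of the 7 defining markers, which include Ocstamp and Ctsk, was 76.3 CPM at 12 weeks and 96.7 CPM at 1 week. Summed over macrophages, each library thus held transcripts of the receptor, the transcription factor, Acp5 and Dcstamp. Those of Ctsk, Calcr, Oscar and Itgb3 were at or near 0. Tnfrsf11a was found in 9.87% of equal-depth macrophages at 12 weeks and 12.3% at 1 week, and Nfatc1 in 7.91% and 6.70%. Whether single cells held Tnfrsf11a or Nfatc1 beside Acp5 or Dcstamp was not tested.

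Among the metalloproteinases Mmp12 was by far the most abundant. It encodes macrophage elastase, a secreted enzyme that cuts elastin. Mmp12 had 20523 UMIs at 12 weeks, or 1794 CPM (1769 to 1818), and 18009 UMIs at 1 week, or 1579 CPM (1556 to 1602). At equal depth it was found in 67.3% (64.9 to 69.7) of 12-week and 68.8% (65.9 to 71.5) of 1-week macrophages. Because the share and the CPM differed in opposite directions, no order between the libraries is read from them. Its UMIs were spread unevenly over cells. At 3000 UMIs, 325 cells (21.2%) at 12 weeks and 198 cells (18.2%) at 1 week held 10 or more, while 500 cells (32.7%) and 340 cells (31.2%) held none. The variance over the mean was 9.42 at 12 weeks and 8.76 at 1 week, where a Poisson count gives 1.

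**Figure D2:**
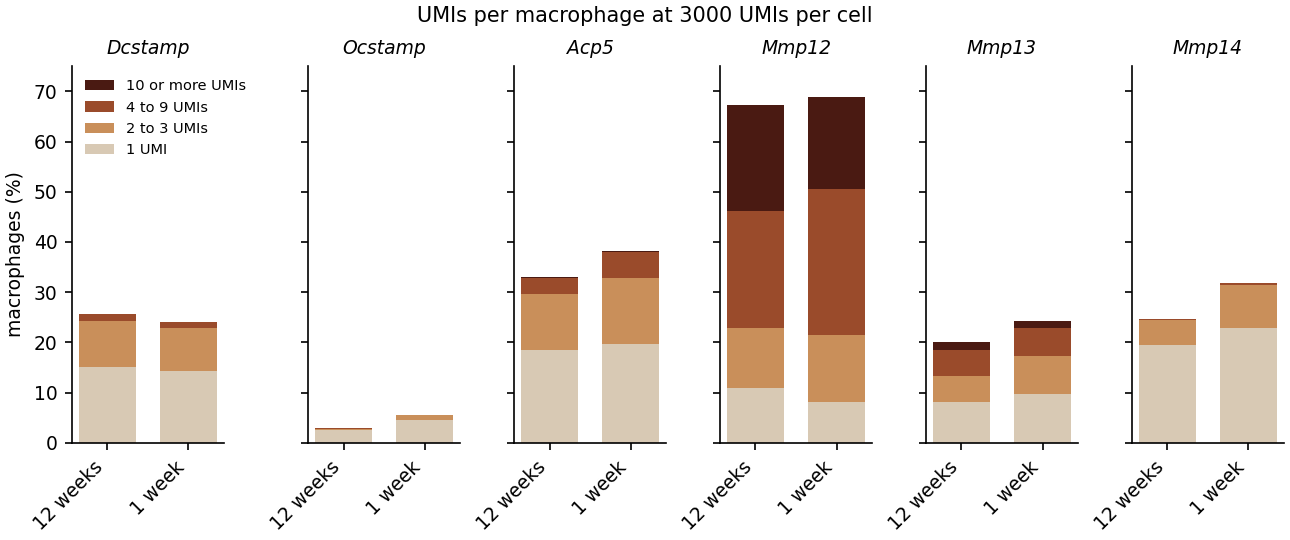
Macrophages by their number of UMIs of 6 members (stacked bars, percent of cells, cells with 0 UMIs not drawn) after thinning to 3000 UMIs, with 12 weeks left of 1 week. Cells with 10 or more UMIs make up 21.2% and 18.2% for Mmp12 and 1.57% and 1.38% for Mmp13, and most Ocstamp- or Mmp14-positive cells hold 1 UMI.

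Mmp13, the collagenase that cuts fibrillar collagen, was found in fewer cells but at high level in some of them. It had 249.9 CPM (240.8 to 259.2) at 12 weeks and 225.7 CPM (217.0 to 234.5) at 1 week, with equal-depth shares of 20.1% (18.1 to 22.2) and 24.2% (21.7 to 26.9). Here too the CPM and the share differed in opposite directions, and the ratio of mean UMIs per cell at equal depth turned to a log2 value of -0.10 against 0.15 for the summed counts. The 10% of macrophages with the most Mmp13 held 83.4% of its equal-depth UMIs at 12 weeks and 76.1% at 1 week. For Mmp12, which had a higher mean per cell, the top 10% held 41.0% and 40.2%, and such a share depends on the mean. The richest single macrophages had 104 Mmp13 UMIs at 12 weeks and 61 at 1 week before thinning. The variance over the mean at equal depth was 8.40 at 12 weeks and 7.14 at 1 week.

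Mmp14 encodes the membrane-anchored metalloproteinase MT1-MMP, which cuts collagen at the cell surface and activates other metalloproteinases. It lies on chromosome 14 (54431612 to 54445364, plus strand). Mmp14 had 102.7 CPM (96.9 to 108.7) at 12 weeks and 138.1 CPM (131.3 to 145.1) at 1 week, a ratio of 0.744 (0.689 to 0.803). Its equal-depth share was 24.6% (22.5 to 26.9) at 12 weeks and 31.9% (29.1 to 34.7) at 1 week. Its variance over the mean was 1.20 at 12 weeks and 1.18 at 1 week, at means of 0.311 and 0.425 UMIs per cell. Mmp12 had means of 5.33 and 5.11. This ratio depends on the mean, so it does not rank Mmp14 and Mmp12 by evenness. The 10% of macrophages with the most Mmp14 held 52.9% of its equal-depth UMIs at 12 weeks and 48.6% at 1 week. Those shares were above the ones for Mmp12 and below the ones for Mmp13. Such a share also depends on the mean, so it does not rank Mmp14 and Mmp12 by evenness either. Among positive cells 78.8% at 12 weeks and 72.0% at 1 week held a single UMI.

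Mmp9, the gelatinase of osteoclasts and neutrophils, had 9 UMIs in 5 macrophages at 12 weeks and 1 UMI in 1 macrophage at 1 week. Of the 5 macrophages at 12 weeks 3 also held at least 3 UMIs of neutrophil markers. The summed level of the 6 neutrophil markers in macrophages was 79.3 CPM at 12 weeks and 24.2 CPM at 1 week, and its part in the Mmp9 count was not tested. Under the C1q limit Mmp9 was found at 12 weeks in 10 cells, and all 10 carried neutrophil markers. No cell under the limit held Mmp9 at 1 week. The stromal markers summed to 0.874 CPM at 12 weeks and 1.32 CPM at 1 week in macrophages. The part of stromal RNA in the metalloproteinase counts was not tested.

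Mmp13 and Mmp12 lie side by side on chromosome 9 in the cluster of metalloproteinase genes (Mmp13 at 7272514 to 7283331 and Mmp12 at 7344381 to 7369499, plus strand, GRCm38). The other members of that cluster, looked up after these values were seen, were nearly silent in the macrophages. Mmp1b, Mmp3 and Mmp20 had 0 UMIs in both libraries. Mmp10 had 12 UMIs at 12 weeks and 11 at 1 week, Mmp8 had 6 in each, Mmp27 had 1 in each and Mmp7 had 1 and 0. Mmp1b overlaps the 3' end of Mmp12 on the other strand. Outside the cluster, Mmp19 had 4.89 CPM at 12 weeks and 2.45 CPM at 1 week, Mmp2 had 1.75 and 1.32 CPM and Mmp25 had 1.40 and 0.877 CPM. Of 15 metalloproteinase genes outside the members, 13 had under 30 UMIs over both libraries.

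The promoters of Mmp12 and Mmp13 are shown because these neighbouring genes were found together in the same cells, and that of Acp5 as the most abundant osteoclast-type member. RefSeq promoters (GRCm38.p6, 250 bases before to 50 after a start) were matched for 6 of the 10 members, with 9 starts. Capitals mark TGANTCA, the site read by AP-1 factors such as Fos and Jun, and TCATGTG, a site of the MITF and TFE family, searched on both strands.
Mmp12, downstream start, chr9:7347124-7347423, plus strand: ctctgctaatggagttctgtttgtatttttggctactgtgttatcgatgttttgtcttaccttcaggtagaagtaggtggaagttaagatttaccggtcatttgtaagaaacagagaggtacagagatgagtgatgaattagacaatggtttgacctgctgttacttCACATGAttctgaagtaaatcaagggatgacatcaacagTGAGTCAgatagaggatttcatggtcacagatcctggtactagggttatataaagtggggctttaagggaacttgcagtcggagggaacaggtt
Mmp13, chr9:7272264-7272563, plus strand: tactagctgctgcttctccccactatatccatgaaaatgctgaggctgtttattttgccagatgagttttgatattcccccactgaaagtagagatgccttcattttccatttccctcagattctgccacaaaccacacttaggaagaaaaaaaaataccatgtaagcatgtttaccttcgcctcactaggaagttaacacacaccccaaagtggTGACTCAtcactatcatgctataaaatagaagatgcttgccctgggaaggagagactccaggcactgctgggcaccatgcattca
Acp5, start nearest the gene's 3' end, chr9:22130549-22130848, minus strand: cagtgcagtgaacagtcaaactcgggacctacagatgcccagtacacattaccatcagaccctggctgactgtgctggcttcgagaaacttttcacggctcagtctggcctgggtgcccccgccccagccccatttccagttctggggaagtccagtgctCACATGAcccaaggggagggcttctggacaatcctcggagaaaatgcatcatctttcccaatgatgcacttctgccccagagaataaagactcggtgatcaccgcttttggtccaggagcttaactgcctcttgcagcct
The AP-1 letters began 44 bases upstream of the start in Mmp12 and 35 bases upstream in Mmp13. Of 32851 promoters 7.81% held these letters. The TCATGTG letters began 83 bases upstream in Mmp12 and 90 bases upstream in Acp5, and 3.77% of promoters held them. The other start of Mmp12 held neither the AP-1 nor the TCATGTG letters, and the other starts of Acp5 did not hold TCATGTG. Gpnmb held the AP-1 letters 8 bases after its start. GAGGAA, the core read by the macrophage factor PU.1, was found in Ctsk and at the other start of Mmp12, and in 28.3% of promoters. CACGTG and the NF-kB motif were not found in the 9 windows and stood in 7.15% and 1.63% of all promoters. No matches overlapped in the members, and a match describes the letters and not a binding site.

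Co-detection was weak for most pairs, and r was highest for Mmp12 with Dcstamp and with Mmp13. The size of r depends on the counts, so it does not rank the pairs by co-expression. Mmp12 had means of 5.33 UMIs per cell at 12 weeks and 5.11 at 1 week, and Mmp13, the next, 0.731 and 0.785. For Ocstamp with Acp5 r was 0.08 and 0.11 at 3000 UMIs and 0.15 and 0.19 at 5000. Pearson r of log counts across macrophages, at 3000 UMIs per cell, was positive in both libraries for 14 of 28 pairs that could be computed and negative in both for 6. Among the 15 pairs of the 6 members found in over 2% of cells, 13 were positive in both. The share of all gene pairs positive in both was not computed, so these counts show nothing particular to the members. The exceptions among the 15 were Dcstamp with Mmp14 and Mmp12 with Mmp14. They were at -0.005 and -0.01 at 12 weeks and 0.07 and 0.09 at 1 week. In a separate random draw both were positive at 12 weeks, at 0.06 and 0.03. Ocstamp in that draw was at -0.02 with Mmp12 and -0.007 with Dcstamp at 12 weeks. With Mmp14 it was at -0.002 at 1 week. Which pairs were exceptions thus changed with the draw. These correlations are over 1530 cells at 12 weeks and 1089 at 1 week, which share a library, a pool of mice and one depth, and are given as descriptions.

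**Figure D3:**
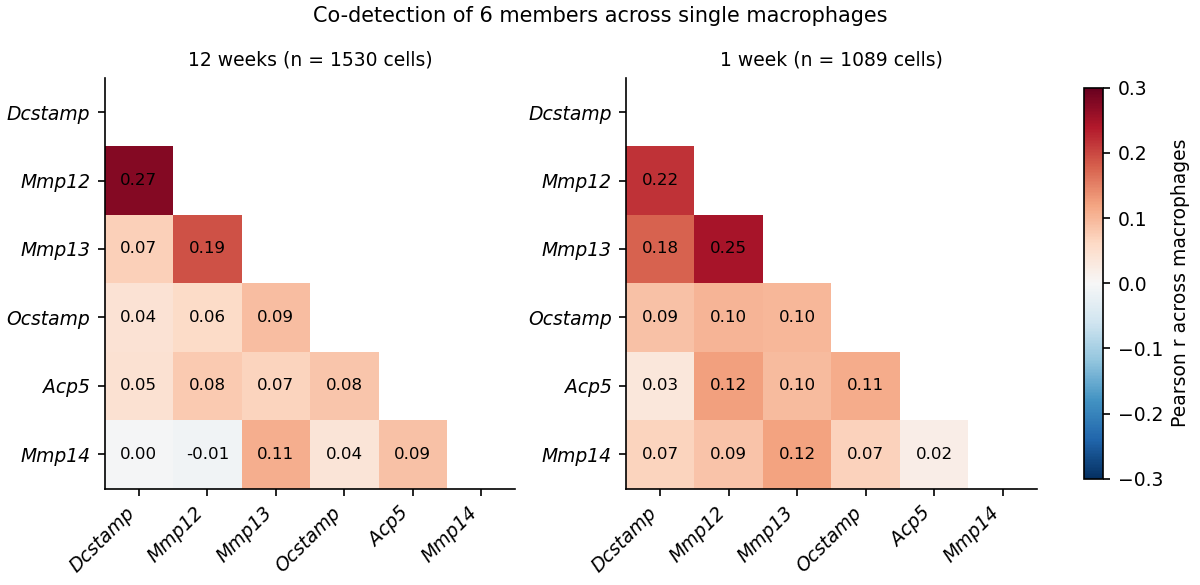
Pearson r of log counts across single macrophages for each pair of 6 members (colour and printed value) in the 12-week library (left, 1530 cells) and the 1-week library (right, 1089 cells), at 3000 UMIs per cell. The highest values are Dcstamp with Mmp12, at 0.27 and 0.22, and Mmp12 with Mmp13, at 0.19 and 0.25.

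Dcstamp followed Mmp12 from cell to cell. Their r was 0.27 at 12 weeks and 0.22 at 1 week. Dcstamp was found in 32.5% of Mmp12-positive and 11.8% of Mmp12-negative macrophages at 12 weeks, and in 29.0% and 13.5% at 1 week. By the number of Mmp12 UMIs in the cell (0, 1 to 3, 4 to 9, and 10 or more), the share with Dcstamp was 11.8%, 25.1%, 33.6% and 39.4% at 12 weeks. At 1 week it was 13.5%, 21.4%, 28.1% and 39.4%. The share climbed at each step in both libraries, and the cells of these 4 bins had median depths of 6994 to 7037.5 UMIs at 12 weeks and 7645 to 8396 at 1 week before thinning.

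Mmp13 also followed Mmp12, its neighbour on the chromosome. Their r was 0.19 at 12 weeks and 0.25 at 1 week. Over the same 4 bins of Mmp12 the share with Mmp13 was 10.6%, 19.1%, 23.2% and 32.6% at 12 weeks and 11.5%, 24.8%, 28.4% and 38.9% at 1 week. Both were found in 16.7% of macrophages at 12 weeks (14.8 to 18.6) and 20.7% at 1 week (18.3 to 23.2), while Mmp13 without Mmp12 was found in 3.46% and 3.58%. Mmp13 with Dcstamp was weaker, at r of 0.07 at 12 weeks and 0.18 at 1 week. Mmp14 showed no such climb at 12 weeks, where 26.6%, 19.9%, 27.1% and 24.0% of cells in the bins held it, against 26.8%, 31.2%, 34.7% and 36.9% at 1 week.

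**Figure D4:**
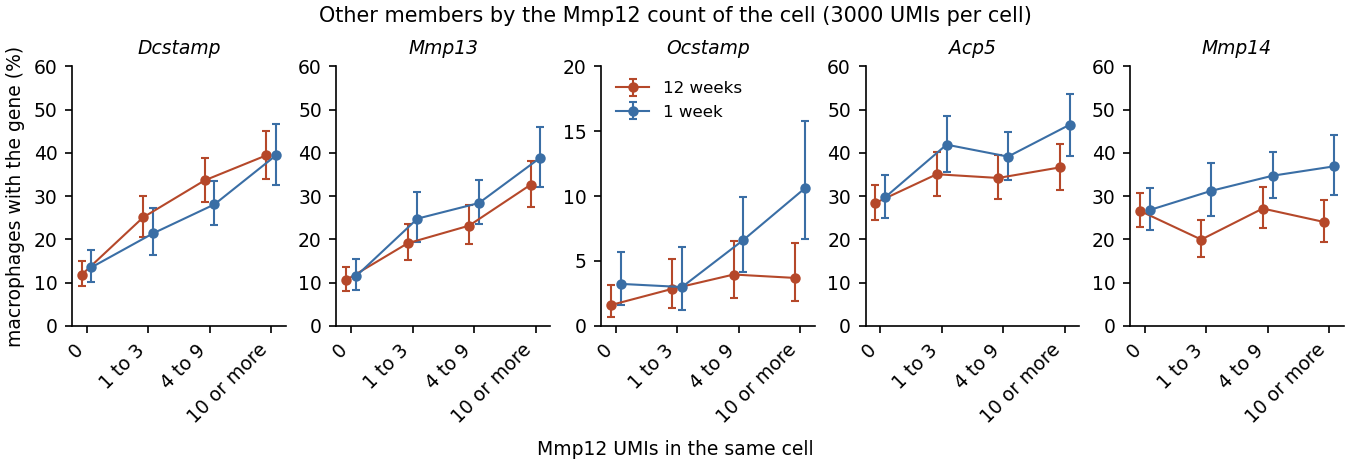
Share of macrophages with each of 5 other members (y axis, percent, exact 95% binomial intervals) by the number of Mmp12 UMIs in the same cell, at 3000 UMIs per cell, for both libraries. Ocstamp has its own y range. Dcstamp climbs to 39.4% in both libraries, and Mmp14 stays between 19.9% and 27.1% at 12 weeks.

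Acp5 was detected more often in cells with Ocstamp than in cells without it. It was found in 22 of 44 Ocstamp-positive cells and 32.5% of the other cells at 12 weeks, and in 34 of 60 and 37.0% at 1 week, with r of 0.08 and 0.11. Ocstamp over the Mmp12 bins was found in 1.60%, 2.85%, 3.95% and 3.69% of cells at 12 weeks and in 3.24%, 2.99%, 6.62% and 10.6% at 1 week. Counted over all 10 genes, a macrophage held a median of 2 members in both libraries. At least 3 were found in 396 of 1530 cells at 12 weeks (25.9%, 23.7 to 28.2) and 339 of 1089 at 1 week (31.1%, 28.4 to 34.0). None was found in 14.1% and 12.5%, and the highest number in a cell was 6, in 3 cells at 12 weeks and 2 cells at 1 week.

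The genes most like each member were ranked among 4100 genes found in at least 5% of macrophages of both libraries, by the lower of the 2 libraries' r. Mmp12 was most like Cd36, the scavenger receptor for oxidised lipid (0.24 at 12 weeks, 0.25 at 1 week), the peroxiredoxin gene Prdx1 (0.22, 0.25) and the scaffold gene Iqgap1 (0.17, 0.22). Dcstamp shared 2 of these, with Prdx1 at 0.17 and 0.20 and Cd36 at 0.14 and 0.19, beside the protease inhibitor gene Cst3 at 0.15 and 0.14. Mmp13 was most like Rapgef2 (0.22, 0.23), the survival gene Bcl2a1b (0.21, 0.24) and Tnfaip3, the feedback inhibitor of NF-kB (0.20, 0.20). Acp5 was most like Tnfaip2 (0.18, 0.23), Bcl2a1b (0.17, 0.20) and Bcl2a1d (0.17, 0.19). Mmp14 was most like Marcks (0.23, 0.17), Slfn2 (0.18, 0.17) and Tnfaip2 (0.17, 0.20). Bcl2a1b and Bcl2a1d are near-identical copies, so the reads of one may be counted for the other.

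The members also differed in the state genes they went with. Against the summed oxidant-response list, r was 0.18 for Mmp12 at 12 weeks and 0.24 at 1 week, and 0.14 and 0.20 for Dcstamp. Mmp13 had its highest value with the inflammatory list, at 0.21 and 0.19. Mmp14 and Acp5 were lowest with the heat shock list, Mmp14 at -0.20 and -0.17 and Acp5 at -0.16 in both libraries. Negative values with that list were not particular to them, since all 6 members had them in both libraries. At 1 week Dcstamp stood at -0.16, Mmp13 at -0.14, Mmp12 at -0.10 and Ocstamp at -0.09. Summed hormone transcripts went with none of the 6, with values between -0.06 and 0.04. Of 8 heat shock genes 5 were at least 2-fold higher at 12 weeks, and the part of that list in the lower Mmp14 and Acp5 levels at 12 weeks was not tested.

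Between the libraries few members were far apart. Of 10338 genes with at least 30 UMIs, 6.76% were at least 2-fold apart. Of the 7 members with that many UMIs 2 were, Ocstamp and Gpnmb, both lower at 12 weeks, the direction that 4.59% of all genes took (2.18% were higher). The median log2 ratio was -0.43 over the 7 members and -0.07 over all 10338 genes. Dcstamp, Mmp12 and Mmp13 had ratios of 1.15, 1.14 and 1.11. The call for Ocstamp rested close to the 2-fold limit, since with TMM scaling or DESeq2 size factors 1 member, Gpnmb, was past it. With the richest cell of each member left out 1 was, Ocstamp, and by mean UMIs per cell at equal depth 0 were.

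**Figure D5:**
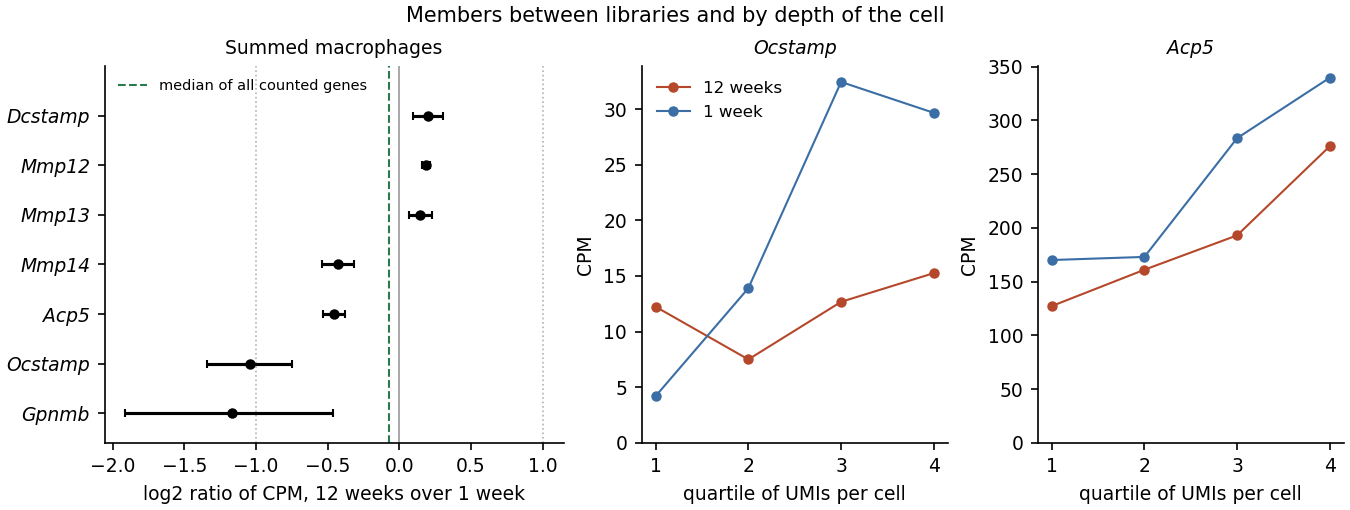
Left, log2 ratio of CPM in summed macrophages, 12 weeks over 1 week, for the 7 members with at least 30 UMIs, with 95% intervals for counting error, dotted lines at 2-fold and a dashed line at the median of all counted genes (-0.07). Middle and right, CPM of Ocstamp and Acp5 by quartile of UMIs per cell, set within each library, where Ocstamp is higher at 12 weeks in the first quartile (12.2 against 4.20 CPM) and lower in the others.

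Genes that work beside the members were counted in the same way, and the counts of 0 below are read against the 6.76% of all genes that were 2-fold apart. Of 21 osteoclast regulator genes 19 were counted and 0 were at least 2-fold apart, among them the adaptor genes Tyrobp (2164 CPM at 12 weeks, 2364 at 1 week) and Fcer1g (1965, 2096). Of 13 osteoclast effector genes 8 were counted and 0 were apart, led by the proton pump gene Tcirg1 (106.0, 100.1 CPM), the integrin gene Itgav (84.5, 104.6) and Snx10 (86.6, 85.8). Of 16 other fusion genes 15 were counted and 0 were apart, led by the tetraspanins Cd63 (1144, 1156 CPM) and Cd81 (974.9, 1025). All 16 V-ATPase genes were counted and 0 were apart, with a median log2 ratio of 0.27.

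Proteases and their inhibitors gave a similar picture. Of 13 other cathepsin genes 12 were counted and 0 were apart. Ctss stood at 3971 CPM at 12 weeks and 3394 at 1 week, Ctsb at 1724 and 1536 and Ctsz at 1525 and 1682, in contrast to Ctsk near 0. Of 9 ADAM-type genes 5 were counted and 0 apart, led by Adam17 (138.4, 126.3 CPM). Of 9 plasminogen system genes 6 were counted and 0 apart, led by the urokinase receptor gene Plaur (332.3, 238.7 CPM) and the urokinase gene Plau (132.2, 116.8). Of 12 inhibitor genes 7 were counted and 1 was higher at 12 weeks, Timp3, with 66 UMIs at 12 weeks and 29 at 1 week. Timp2, an inhibitor of metalloproteinases that also takes part in their activation by MT1-MMP, stood at 220.6 CPM at 12 weeks and 214.0 CPM at 1 week. The cathepsin inhibitor gene Cst3 stood at 7729 and 7692 CPM.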

How the data were processed

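The authors deposited whole-number UMI counts for each gene in each barcode, without normalization. The submitters' processing notes name Cell Ranger and mm10, and version 3.1.0 stands in the file headers. The choice of barcodes as cells and the use of strand are not given in the sources used here. Sums over macrophages were scaled to CPM of all their UMIs (11441581 at 12 weeks, 11406907 at 1 week). CPM of 3' UMIs does not scale with transcript length. Ratios carry exact Poisson-based intervals and shares exact Clopper-Pearson intervals, all at 95% and for counting error only. A gene was counted between libraries with at least 30 UMIs over both and called apart at 2-fold. With 1 library per time label no test was run. A count of 0 allows up to 3 counts. No doublet caller was run. Leaving out macrophages with at least 3 UMIs of B or T cell markers was an alternative instead.

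The 10 members, gene lists, markers and rules were chosen with earlier results of these data known. The text names the members, the most abundant genes of each list and those at least 2-fold apart, and the 3 genes most like each member found in at least 5% of cells. Genes outside that rule are given as looked up later or come from the marker lists. Gene positions are from GENCODE, by identifier. Thinning, ratios and correlations were tested on simulated data. Python 3.11.15, numpy 2.4.6, scipy 1.17.1, pandas 2.3.3, R 4.3.3, edgeR 4.0.16 and DESeq2 1.42.0 were used, the last pair for scaling factors only.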

Additional observations from a re-analysis of the deposited data

Results flagged for a closer look

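Cells under the C1q limit, grouped by at least 3 UMIs of 1 cell type's markers, were not part of the comparisons. Before thinning, 7 signals in them were above what a count of 0 allows. Mmp9 was found in 100% of the 10 neutrophil-marked cells of the 12-week library (exact 95% interval 69.2 to 100), with 24 UMIs or 1410 CPM at a median depth of 1736 UMIs. Acp5 was found in 20.7% of 29 B-marked cells and 25.8% of 31 T-marked cells at 12 weeks, and in 21.4% of 28 B-marked cells at 1 week. In the 23 dendritic-marked cells at 12 weeks Acp5 and Mmp12 were each found in 21.7% and Mmp14 in 17.4%, at a median depth of 8305 UMIs. Mmp12 in those dendritic-marked cells stood at 30.2 CPM, and in the macrophages of that library at 1794 CPM.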

How the results depend on the processing

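No paired analysis was possible because each time label had 1 library and no number was shared. The count of members at least 2-fold apart (2) became 1 with TMM scaling, 1 with DESeq2 size factors, and, in alternatives chosen after seeing the data, 1 with each member's richest cell left out and 0 by mean UMIs at equal depth. Without a minimum it was 3, with Mmp9 added. Depth set the shares. At least 3 members were found in 16.0% of macrophages at 12 weeks and 21.0% at 1 week with 2000 UMIs, 39.3% and 47.1% with 5000, and 45.3% and 52.1% without thinning, the 12-week share lower each time. With a C1q limit of 3 UMIs the 12-week share was 23.5%. Pairs positive in both libraries numbered 22 without thinning and 13 to 18 under the other alternatives. Of 140 member shares recomputed at the same depth 1 left its interval, and of 60 at another depth 38 did. Dcstamp with Mmp12 stayed between 0.20 and 0.34 at 12 weeks and 0.19 and 0.41 at 1 week. The log2 ratio of Mmp13 ranged from -0.10 to 0.22, that of Ocstamp from -1.11 to -0.97 and that of Gpnmb from -1.29 to -0.49. The cause of these changes was not tested, apart from the depth, which the alternatives themselves set.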

Other observations

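Gpnmb-positive macrophages were few. Of 18 at 12 weeks, before thinning, 14 held Mmp12, where 75.1% of all macrophages did, 7 held Dcstamp, 5 held Mmp13, 12 held Trem2, a lipid-sensing receptor gene, and 2 held Spp1. Of 13 at 1 week 11 held Mmp12, where 72.6% of all macrophages did, 6 Dcstamp, 5 Mmp13, 11 Trem2 and 4 Spp1. Median depth was 14222 UMIs in these cells at 1 week and 7734.5 in those at 12 weeks, against 7401 and 6890.5 over all macrophages. Of all macrophages, before thinning, 38.2% at 12 weeks and 39.8% at 1 week held Dcstamp, and 27.9% and 31.2% held Mmp13. Such shares were not computed for Trem2 and Spp1, so their counts show nothing particular to Gpnmb-positive cells. Of 12 lipid-associated macrophage genes, which include Apoe at 29307 CPM at 12 weeks and 25602 CPM at 1 week, Fabp5 was at least 2-fold higher at 12 weeks and Lpl at least 2-fold lower.

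Mmp12 ran opposite to Lyz2 and Trem2. Against the summed macrophage list its r was -0.16 at 12 weeks and -0.008 at 1 week. Its r with the lysozyme gene Lyz2 was -0.27 at 12 weeks and -0.17 at 1 week, and with Trem2 -0.11 and -0.13. Trem2 was found in 45.6% of cells with no Mmp12 UMI in both libraries, and in 32.6% of cells with 10 or more at 12 weeks and 24.7% at 1 week. These genes were chosen after their values were seen.

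Other lists also held genes that were 2-fold apart between the libraries, where 2.18% of all counted genes were higher at 12 weeks and 4.59% lower. Of 9 oxidant-response genes 4 were at least 2-fold higher at 12 weeks, Mt1, Mt2, Hmox1 and Srxn1. The 5 heat shock genes were Hsp90aa1, Hspa1b, Hspd1, Hsph1 and Dnajb1. Of 8 interferon genes 2 were higher, Ifit2 and Ifit3. Of 8 cycling genes 7 were counted and 4 were lower, Top2a, Cdk1, Birc5 and Tpx2, the last at a log2 ratio of -1.004. Of 8 immediate early and 8 inflammatory genes 0 were that far apart.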
